A study of Mus musculus with 13 samples.

Results

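The tricarboxylic acid cycle oxidises acetyl-CoA inside mitochondria, and 9 genes of its enzymes were read in 13 mouse hearts: Cs, Idh2, Idh3a, Ogdh, Dlst, Suclg1, Suclg2, Fh1 and Mdh2. They were chosen by symbol, as steps from citrate synthase to malate dehydrogenase with succinate dehydrogenase left out. All 9 of 9 were found among the 24061 symbols of the count files, and all 9 passed the filter on low counts that left 14387 genes to test. The hearts came from male C57BL/6N mice aged 13 weeks on a chow diet. They were E3A/E3A (5 hearts, both alleles), WT/E3A (4 hearts, 1 allele) and WT/WT (4 hearts, no such allele). The E3A allele lies in Cpt1b, the muscle carnitine palmitoyltransferase that starts fatty acid entry into mitochondria, and lowers the enzyme's sensitivity to malonyl-CoA, its inhibitor. All groups share strain, sex, age and diet, and each library held poly(A) RNA of heart tissue, a mixture of cell types. Gene counts cannot show the base changes of the allele, so the genotype labels were not checked by them.

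In the cycle, citrate synthase joins acetyl-CoA to oxaloacetate, a series of dehydrogenases then releases carbon dioxide and loads NADH, and succinyl-CoA is turned into succinate with the gain of a nucleoside triphosphate. Fumarase and malate dehydrogenase close the circle by remaking oxaloacetate. In the heart, which burns mainly fatty acids, the cycle takes most of its acetyl-CoA from beta-oxidation and the rest from pyruvate, lactate and ketone bodies. The comparison across genotypes therefore asked whether transcripts of the cycle differed where CPT1B was less inhibited.

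Levels are given in CPM, the standard unit of counts relative to the library total, with totals scaled by the trimmed mean of M values (TMM) over all 13 libraries. Depth ran from 20.1 to 52.6 M counted reads per library, and each of the 9 genes had at least 2975 reads in every library. The labels note 4 libraries as potential outliers: E3A/E3A replicates 1 and 2, WT/E3A replicate 1 and WT/WT replicate 1. The labels give no reason. The tests were therefore run with all 13 libraries and with the other 9, 3 per genotype. The hearts had the defining markers of their tissue: 7 summed cardiomyocyte markers (Myh6, Actc1, Tnnt2, Tnni3, Ryr2, Myl2 and Nkx2-5) came to 111128 to 166357 CPM in the noted libraries and 64122 to 73987 CPM in the other 9. Adult haemoglobin genes Hba-a1 and Hbb-bs were at 0 in all 13 libraries, while Alas2, an erythroid heme synthesis gene, had 9.98 to 17.8 CPM in the noted and 7.22 to 16.6 CPM in the other libraries. The 5 summed white adipocyte markers came to 0.803 to 10.9 CPM in the noted and 0.800 to 3.79 CPM in the other libraries. Cpt1b itself had 1.58 to 2.93 CPM in the noted and 2.48 to 3.74 CPM in the other libraries. Whether the low Cpt1b value and the 0 for the haemoglobin genes reflect little RNA or the way reads were counted was not tested. In such bulk samples fewer cells of a type and less RNA per cell cannot be told apart.

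Citrate synthase, the entry enzyme encoded by Cs (GRCm38, chromosome 10, 128337727 to 128362482, plus strand), had 1245 and 1414 CPM in the noted and 1637, 1642 and 1677 CPM in the other E3A/E3A hearts. WT/E3A hearts had 1116 CPM in the noted and 1733, 1688 and 1844 CPM in the other libraries. WT/WT hearts had 1132 CPM in the noted and 1649, 1789 and 1767 CPM in the other libraries. All 4 noted libraries lay below the other 9, whatever the genotype. Among those 9 the E3A/E3A values lay below the WT/E3A values and overlapped the lower end of the WT/WT values. Cs in E3A/E3A relative to WT/WT had a log2 fold change of -0.07 (SE 0.048, 95% interval -0.17 to 0.03) in the 9 libraries and -0.06 (SE 0.17, interval -0.44 to 0.32) in the 13.

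Isocitrate is oxidised by 2 kinds of mitochondrial enzyme, the NADP-dependent homodimer of Idh2 (chromosome 7, 80094845 to 80118608, minus strand) and the NAD-dependent heteromer whose catalytic alpha subunit is Idh3a (chromosome 9, 54586511 to 54604662, plus strand). Idh2 reached 3369 and 2718 CPM in the noted and 2177, 2145 and 2014 CPM in the other E3A/E3A hearts. In WT/E3A hearts Idh2 stood at 3012 CPM in the noted and 2229, 2016 and 2148 CPM in the other libraries. In WT/WT hearts it stood at 3592 CPM in the noted and 2186, 2269.9 and 2378 CPM in the others. The noted libraries were the highest in each genotype, and among the other 9 all E3A/E3A hearts lay below all WT/WT hearts by a narrow margin, while WT/E3A overlapped both. Relative to WT/WT, Idh2 in E3A/E3A had a log2 fold change of -0.11 (SE 0.052, 95% interval -0.22 to 0.00) in the 9 libraries and -0.07 (SE 0.20, interval -0.50 to 0.36) in the 13.

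Idh3a had 497 and 568 CPM in the noted and 682, 689.7 and 690.4 CPM in the other E3A/E3A hearts. The WT/E3A hearts had 431 CPM in the noted and 695, 729.6 and 735 CPM in the other libraries, and the WT/WT hearts 441 CPM in the noted and 659.6, 671 and 678 CPM in the others. The noted libraries were the lowest of each genotype. Among the 9 libraries the order by genotype was WT/E3A, then E3A/E3A, then WT/WT, with no overlap between any pair. In the 9 libraries the log2 fold change of Idh3a was 0.04 (SE 0.043) for E3A/E3A against WT/WT, 0.10 (SE 0.043) for WT/E3A against WT/WT and -0.07 (SE 0.043) for E3A/E3A against WT/E3A. With 13 libraries it was 0.03 (SE 0.18) for E3A/E3A against WT/WT. With 9, WT/E3A against WT/WT had an unadjusted edgeR p of 0.0279 and an adjusted p of 0.748.

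The 2-oxoglutarate dehydrogenase complex uses Ogdh as its decarboxylating E1 component (chromosome 11, 6291597 to 6359094, plus strand) and Dlst as its succinyl-transferring E2 core (chromosome 12, 85110822 to 85134091, plus strand). Promoter windows from 250 bases before to 50 bases after annotated starts were available for 8 of the 9 genes, 13 windows in all. They were searched on both strands for TNAAGGTCA (an estrogen-related receptor site), CGCATGCG (the core of NRF1 sites) and CCGGAAG (an ETS site, as bound by GABP), motifs of factors known to act on genes of mitochondrial energy metabolism. The receptor motif was in 0 of the 13 windows and in 1.28% of all 32851 windows in the table. The NRF1 core was in 2 overlapping windows of Ogdh, at the same site, and in 1.87% of all. Ogdh had more of the 13 windows than any other gene, and so more chances of a match. Its windows that start from 6291347 to 6291920, nearer the gene's first start, held no motif. The ETS motif was in 1 window, of Dlst, and in 8.86% of all. These 2 promoters of 1 enzyme complex are shown because among the 8 genes searched they alone held a motif, here in capitals; the letters are RefSeq's for GRCm38.p6, plus strand, and a match does not show that a factor binds. The Ogdh window is chr11:6292308-6292607, at an annotated start inside the gene, and the Dlst window is chr12:85110583-85110882.
Ogdh: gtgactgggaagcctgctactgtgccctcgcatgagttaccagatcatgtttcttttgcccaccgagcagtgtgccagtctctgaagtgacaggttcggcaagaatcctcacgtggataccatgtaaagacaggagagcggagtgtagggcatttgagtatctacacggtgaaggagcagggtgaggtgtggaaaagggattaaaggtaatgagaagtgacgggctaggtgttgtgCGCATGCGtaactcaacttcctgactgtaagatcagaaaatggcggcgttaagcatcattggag
Dlst: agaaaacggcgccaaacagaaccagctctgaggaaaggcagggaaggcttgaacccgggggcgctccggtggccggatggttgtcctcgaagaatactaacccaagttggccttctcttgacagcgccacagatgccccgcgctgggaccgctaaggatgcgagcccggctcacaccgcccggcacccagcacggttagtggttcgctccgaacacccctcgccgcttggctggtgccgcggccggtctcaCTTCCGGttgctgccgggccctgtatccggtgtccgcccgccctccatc

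Ogdh had 3049 and 3092 CPM in the noted and 2969.6, 3201 and 3153 CPM in the other E3A/E3A hearts. WT/E3A hearts held 3400.2 CPM in the noted and 3407, 3052 and 3382 CPM in the other libraries, and WT/WT hearts 3206 CPM in the noted and 3086, 3294 and 3441 CPM in the others. Noted and other libraries were mixed in every genotype, and the genotypes overlapped. Set against WT/WT, Ogdh in E3A/E3A had a log2 fold change of -0.07 (SE 0.056) in the 9 libraries and -0.07 (SE 0.076) in the 13, and no other of the 9 genes had so small an SE in the 13.

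Dlst, its partner, had 901 and 844 CPM in the noted and 771, 809 and 805 CPM in the other E3A/E3A hearts. It had 1106 CPM in the noted and 832, 772 and 863 CPM in the other WT/E3A hearts, and 1082 CPM in the noted and 777, 799 and 825 CPM in the other WT/WT hearts. Each noted library was above the others of its genotype, but E3A/E3A replicate 2 was below the highest WT/E3A heart, so the ranges overlapped. Among the 9 libraries the genotypes overlapped, with a log2 fold change of -0.01 (SE 0.050, 95% interval -0.12 to 0.10) for E3A/E3A against WT/WT, and of -0.08 (SE 0.13) with 13.

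Succinyl-CoA synthetase pairs the alpha subunit of Suclg1 (chromosome 6, 73248505 to 73276907, plus strand) with a beta subunit that sets the nucleotide, and Suclg2 (chromosome 6, 95473009 to 95718858, minus strand) encodes the GDP-forming one. Suclg1 had 425 and 398 CPM in the noted and 316, 315 and 309 CPM in the other E3A/E3A hearts. Its values were 344 CPM in the noted and 317, 306 and 347 CPM in the other WT/E3A hearts, and 402 CPM in the noted and 318, 335 and 329.5 CPM in the other WT/WT hearts. The noted hearts were higher in E3A/E3A and WT/WT, and the noted WT/E3A heart was inside the range of the others of its genotype. Among the 9 libraries the highest E3A/E3A heart lay just below the lowest WT/WT heart (log2 fold change -0.06, SE 0.050, 95% interval -0.17 to 0.04), while with 13 libraries the value was 0.03 (SE 0.12).

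Suclg2 had 126 and 133 CPM in the noted and 146, 142 and 145 CPM in the other E3A/E3A hearts. Values of 142 CPM in the noted and 154, 154 and 152 CPM in the other libraries were found in WT/E3A, and of 132 CPM in the noted and 151, 156 and 157 CPM in the others in WT/WT. The noted libraries were the lowest of each genotype, and among the 9 all E3A/E3A hearts lay below all WT/E3A and all WT/WT hearts. In E3A/E3A relative to WT/WT, Suclg2 had a log2 fold change of -0.10 (SE 0.042, 95% interval -0.19 to -0.01), with an unadjusted edgeR p of 0.0299 and an adjusted p of 0.574 in the 9 libraries, and of -0.11 (SE 0.087) in the 13. Within title prefix C3, an unexplained tag shared by 2 E3A/E3A, 1 WT/E3A and 1 WT/WT heart, the same difference was -0.06.

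Fumarase, which hydrates fumarate to malate, is encoded by Fh1 (chromosome 1, 175601378 to 175625635, minus strand). Fh1 had 485 and 453 CPM in the noted and 482, 477 and 473 CPM in the other E3A/E3A hearts. It had 331 CPM in the noted and 487, 471 and 506 CPM in the other WT/E3A hearts, and 379.6 CPM in the noted and 491, 499 and 498 CPM in the other WT/WT hearts. The noted hearts of WT/E3A and WT/WT were far below the rest, and those of E3A/E3A were not: 1 was above and 1 below the other 3. Among the 9 libraries E3A/E3A lay below WT/WT without overlap (log2 fold change -0.05, SE 0.043, 95% interval -0.15 to 0.04), and with 13 libraries the value was 0.02 (SE 0.13).

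Malate dehydrogenase 2, the mitochondrial enzyme that remakes oxaloacetate and part of the malate-aspartate shuttle, is encoded by Mdh2 (chromosome 5, 135778649 to 135790386, plus strand). Mdh2 reached 2244 and 1896 CPM in the noted and 1179, 1211 and 1162 CPM in the other E3A/E3A hearts. It reached 2602 CPM in the noted and 1209, 1115 and 1282 CPM in the other WT/E3A hearts, and 2659.9 CPM in the noted and 1151, 1226 and 1255 CPM in the other WT/WT hearts. All noted libraries lay far above the rest, by the widest gap among the 9 genes, and the genotypes overlapped in the 9. Mdh2 in E3A/E3A relative to WT/WT had a log2 fold change of -0.03 (SE 0.054, 95% interval -0.15 to 0.08) in the 9 libraries and -0.03 (SE 0.34, interval -0.77 to 0.70) in the 13. The exons of the 9 genes share 0 bases with those of another annotated gene.

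**Figure D1:**
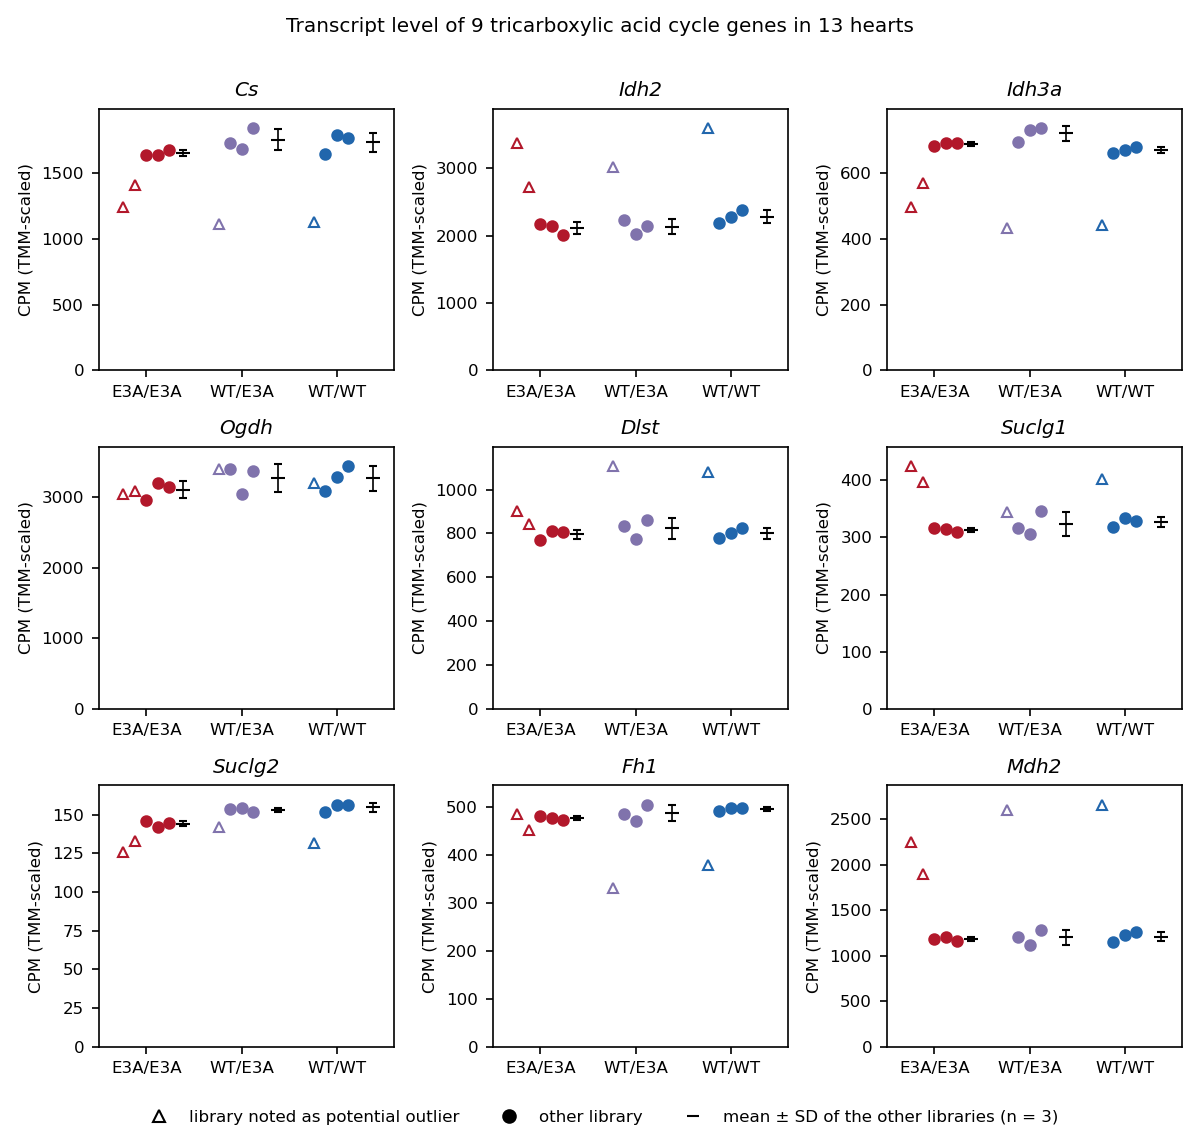
Level of each of the 9 genes in CPM after TMM scaling, 1 point per heart, with E3A/E3A left, WT/E3A in the middle and WT/WT right. Open triangles are the libraries noted as potential outlier, filled circles the other 9, and black bars the mean and SD of the 3 other libraries. The triangles of Mdh2 and Idh2 stand above all circles and those of Cs and Idh3a below them, while the Ogdh triangles are mixed with the circles.

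Hearts with E3A on both alleles were set against WT/WT. EdgeR's quasi-likelihood test with Benjamini-Hochberg adjustment called 0 of the 9 genes at an adjusted p under 0.05, with 13 libraries and with 9. Of all genes tested it called 0.00695% with 13 libraries and 0.271% with 9. In the 13 libraries 0 of the 9 genes had an unadjusted p under 0.05, and in the 9 libraries 1 had (Suclg2); of all genes tested 1.20% and 7.69% had. DESeq2 and limma-voom with quality weights also called 0 of the 9 in both. The median log2 fold change of the 9 genes was -0.06 with 13 libraries, where 6 were negative, and -0.06 with 9, where 8 were negative; over all genes tested the medians were -0.02 and 0.00. The 13-library median rested on single hearts: it was -0.024, -0.020 and -0.0074 without E3A/E3A replicates 3, 4 and 5 in turn, and -0.099 without WT/WT replicate 2. With 9 libraries it stayed between -0.084 and -0.048 in the leave-one-out fits. With 9 libraries the E3A/E3A and WT/WT ranges did not overlap for 5 genes, lower for Idh2, Suclg1, Suclg2 and Fh1 and higher for Idh3a. Of all genes tested 14.2% had such ranges. With 13 libraries 0 of the 9 genes had them, against 43 genes higher and 81 lower among the 14387 tested. The 95% intervals of the 9 genes together spanned folds of 0.859 to 1.09 in the 9 libraries and, through Mdh2, 0.587 to 1.63 in the 13.

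Title prefix C3 was the only prefix with both genotypes among the 9 libraries, with 2 E3A/E3A hearts and 1 WT/WT heart. Within C3 Mdh2 stood at 0.02, Dlst at 0.02, Cs at 0.01, Ogdh at -0.01, Suclg1 at -0.03, Fh1 at -0.04, Idh2 at -0.06, Suclg2 at -0.06 and Idh3a at 0.06 (log2 differences, no test). With the prefix as a block in the model the median of the 9 genes was -0.00 and 5 were negative. In that fit the WT/WT side rests on replicate 2 alone, since both other WT/WT hearts bear prefix C6, which no other genotype has. Within C2, which held only noted libraries (2 E3A/E3A and 1 WT/WT), the differences ran from -0.37 for Mdh2 to 0.31 for Fh1.

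Hearts with 1 E3A allele were set against WT/WT next. Of the 9 genes, edgeR called 0 with 13 libraries and 0 with 9, against 0% and 0.0209% of all genes tested; DESeq2 and limma-voom with quality weights called 0 too. At an unadjusted p under 0.05 there were 0 with 13 and 1 with 9 (Idh3a), against 0.813% and 6.36% of all genes tested. The median log2 fold change was 0.01 with 13 libraries and -0.01 with 9. With 13 it changed sign without WT/WT replicate 2 (-0.014) or WT/WT replicate 3 (-0.0023). It also did with total counts (-0.017) and limma-voom with quality weights (-0.020). With 9 it changed sign without WT/E3A replicate 3 (0.039) or WT/WT replicate 4 (0.015). With the prefix as a block the median was 0.049 with 9 libraries (2 of 9 negative) and 0.056 with 13 (1 negative). In that fit with 9 libraries the WT/WT side rests on replicate 2 alone. Within C3 (1 heart against 1) the differences ran from -0.01 for Fh1 to 0.14 for Ogdh, with Idh2 at 0.03. Idh2 had the lowest value with 9 libraries, -0.10 (SE 0.052, interval -0.21 to 0.01), and Idh3a the highest, 0.10 (interval 0.01 to 0.20). Ranges that did not overlap were found for 1 of the 9 genes (Idh3a, higher), against 12.7% of all genes tested. With 13 libraries no gene of the 9 had such ranges, against 86 genes higher and 78 lower among the 14387 tested. The intervals spanned folds of 0.866 to 1.15 with 9 libraries and 0.577 to 1.69 with 13.

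E3A/E3A hearts compared with WT/E3A hearts gave 0 called genes of 9 with 13 libraries and 0 with 9, against 0% and 0.0417% of all genes tested. DESeq2 and limma-voom with quality weights called 0 too. Of the 9 genes 0 had an unadjusted edgeR p under 0.05 in either, against 1.45% of all genes tested with 13 libraries and 6.91% with 9. With 9 libraries all 9 log2 fold changes were negative, from -0.09 for Cs and Suclg2 to -0.01 for Idh2. Their median was -0.05, against 0.00 over all genes, of which 49.2% were negative. The 9 other cycle genes and the 9 core beta-oxidation genes described below were also all negative there, with medians of -0.04 and -0.11. With 13 libraries the median of the 9 enzyme genes was -0.05 and 6 of 9 were negative. With 9 libraries the median was -0.012, with 7 of 9 negative, without WT/E3A replicate 4, and -0.079 without WT/E3A replicate 3. With 13 it was 0.011 without WT/E3A replicate 4, -0.025 without WT/E3A replicate 2, and -0.083, -0.088 and -0.089 without E3A/E3A replicates 3, 4 and 5 in turn. Ranges did not overlap for Cs, Idh3a and Suclg2, each lower in E3A/E3A, against 11.2% of all genes tested. With 13 libraries 0 of the 9 genes had such ranges, against 73 genes higher and 70 lower among the 14387 tested. The intervals spanned folds of 0.872 to 1.07 with 9 libraries and 0.595 to 1.65 with 13. Within C3 (2 E3A/E3A hearts against 1 WT/E3A heart) all 9 differences were negative, from -0.16 for Ogdh to -0.02 for Idh3a, and within C4 (1 against 2) they ran from -0.11 for Suclg2 to 0.04 for Idh2. The 3 comparisons share their groups in pairs, so their values are not independent of each other.

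**Figure D2:**
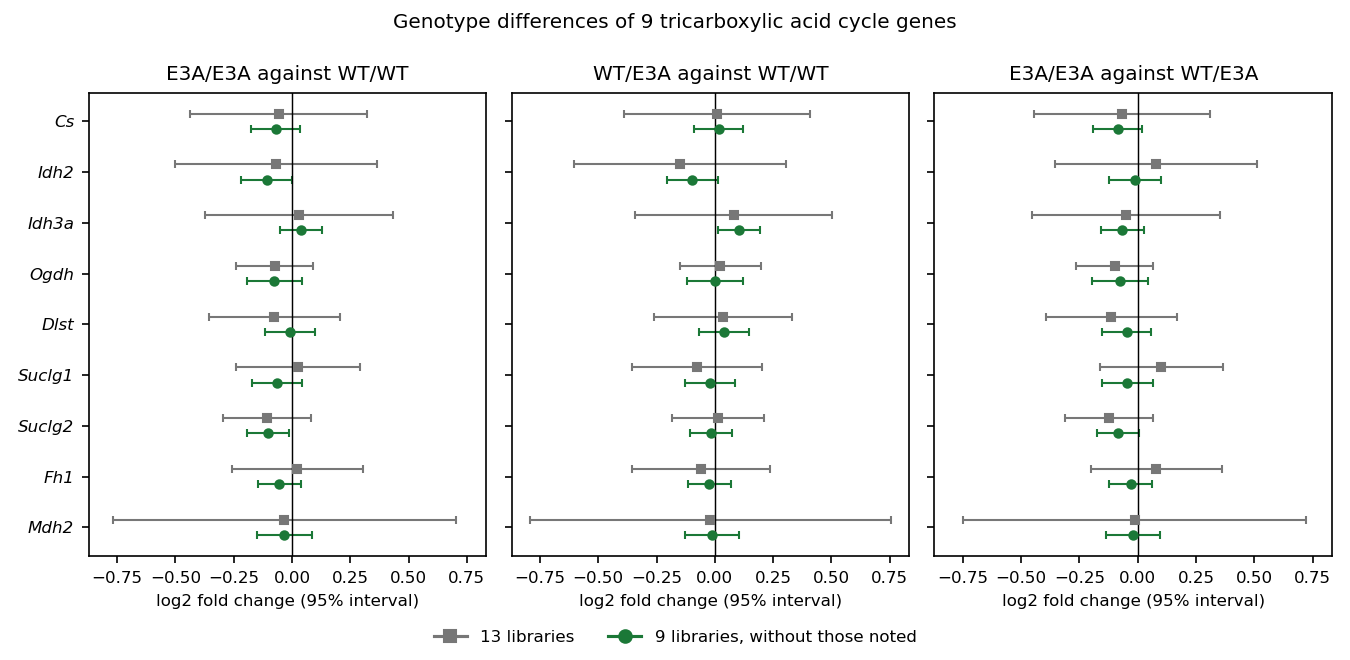
Log2 fold change of each of the 9 genes in the 3 genotype comparisons, with 95% intervals from the edgeR fit; grey squares are the 13 libraries and green circles the 9 that were not noted. With 9 libraries every interval lies within folds of 0.859 to 1.15, and with 13 the interval of Mdh2 reaches from 0.587 to 1.63 in E3A/E3A against WT/WT.

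Between noted and other libraries the 9 genes differed in opposite directions. Differences were taken within each genotype and averaged over the 3 genotypes. They are a description with no test, because the note may rest on these same counts. Mdh2 was higher by 1.02 and Idh2 by 0.56 on the log2 scale, and Dlst and Suclg1 had differences of 0.33 and 0.26 with overlapping ranges. Idh3a was lower, at -0.57, as were Cs at -0.53 and Suclg2 at -0.17, and Fh1 had -0.32 with overlapping ranges. Ogdh had 0.00. In 8 of the 9 genes the sign was the same in all 3 genotypes; the exception was Ogdh.

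In those terms 2 of the 9 genes were higher in all 4 noted libraries than in all other 9, 3 were lower and 4 overlapped. Of all genes tested, 25.9% were higher and 27.1% lower in the same sense. Of the 1628 genes with a mean of at least 100 CPM, 33.5% were higher and 33.0% lower. The median size of the difference, whatever its sign, was 0.33 for the 9 genes. It was 0.52 over all genes tested and 0.49 over those 1628. By genotype the shift of Mdh2 was 0.80 in E3A/E3A, 1.12 in WT/E3A and 1.14 in WT/WT, and that of Cs was -0.32, -0.65 and -0.61 in the same order. Fh1 differed most between genotypes, with -0.03 in E3A/E3A, -0.56 in WT/E3A and -0.39 in WT/WT. Over the 9 other libraries the SD per gene was 0.036 to 0.076 log2 units, and the coefficient of variation per gene was 2.49% (Fh1) to 5.29% (Idh2), against a median of 4.67% over the 1628 genes with a mean of at least 100 CPM.

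Several other measures moved with the note, and their part in the shift was not tested. Genes with more G and C in their annotated transcript were higher in the noted libraries: over the 14274 tested genes with an annotated transcript the median difference was -0.80, -0.20, 0.20 and 0.60 in 4 bins of about equal size from the lowest to the highest GC content. The transcripts of Mdh2 (55.4% GC) and Idh2 (55.4%) were in the highest bin and those of Idh3a (44.9%) and Suclg2 (44.4%) in the lowest. Cs (50.4%) and Suclg1 (50.2%) had nearly the same GC content and opposite signs. The TMM factors were 0.805 to 0.955 in the noted and 1.03 to 1.09 in the other libraries, depth overlapped between them, and 4 of 7 cardiomyocyte markers were higher in all noted libraries. Summed fibroblast markers (Col1a1, Col1a2, Dcn and Pdgfra) came to 1075 to 2243 CPM in the noted and 784 to 898 CPM in the other libraries, but the 4 genes differed in direction. Both collagens were higher in all noted libraries, Dcn was lower in all of them (146 to 268 CPM, against 390 to 466 CPM in the other libraries), and Pdgfra overlapped. The note is also tied to the title prefix, since all 3 libraries of C2 are noted.

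**Figure D3:**
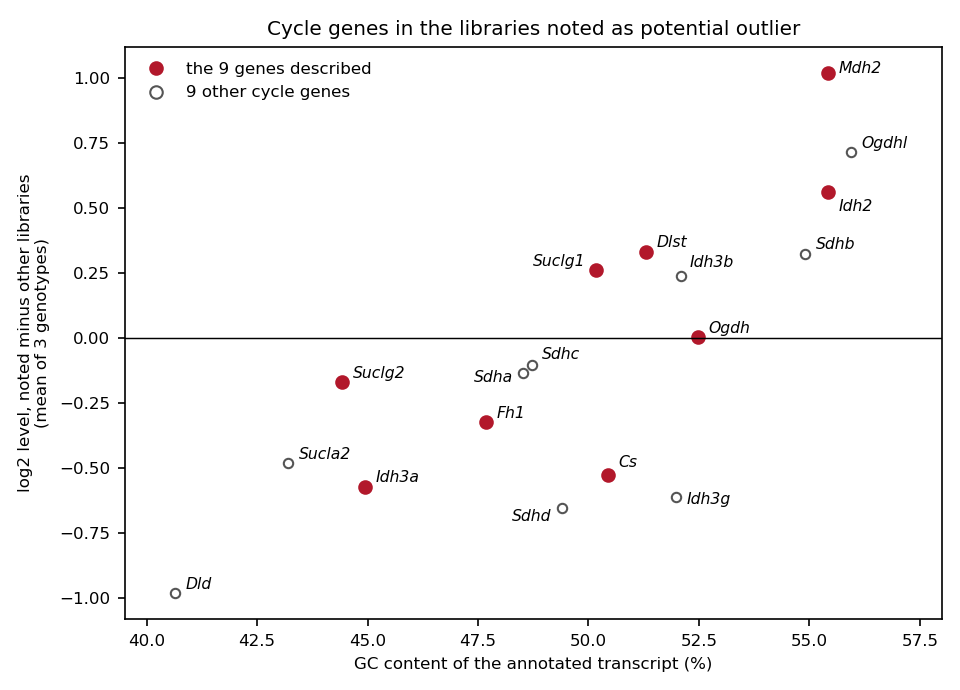
Difference in log2 level between the noted and the other libraries (mean of the 3 genotypes) against the GC content of the annotated transcript, for the 9 genes described (filled) and 9 other genes of the cycle (open). Mdh2 at 1.02 and Dld at -0.98 are the extremes, and Cs at -0.53 and Suclg1 at 0.26 differ in sign at nearly the same GC content.

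Per kilobase of transcript, Idh2 was the most abundant of the 9 in the 9 libraries, with a median of 1248 CPM per kb. Mdh2 at 831 and Ogdh at 776 CPM per kb followed with overlapping ranges, then Cs at 577, Dlst at 291 and Idh3a at 287 CPM per kb, of which Dlst and Idh3a overlapped. Suclg1 at 209, Fh1 at 185 and Suclg2 at 45.1 CPM per kb closed the order, each apart from its neighbours. In the noted libraries Mdh2 at 1664 CPM per kb overlapped Idh2 at 1828 CPM per kb, Cs stood at 406 CPM per kb and overlapped Dlst at 359 CPM per kb, and Suclg1 at 263 CPM per kb stood above Idh3a at 195 CPM per kb with overlapping ranges. Together the 9 genes took 1.004% to 1.14% of counted reads in the noted and 1.09% to 1.19% in the other libraries, with overlap. After TMM scaling their sum was 11516 to 13026 CPM in the noted and 10305 to 11328 CPM in the other libraries, without overlap. In those other libraries they took 1.09% to 1.13% in E3A/E3A, 1.10% to 1.17% in WT/E3A and 1.14% to 1.19% in WT/WT. After TMM scaling all genotypes overlapped. The scaled sum was 10360 to 10632 CPM in E3A/E3A, 10305 to 11259 CPM in WT/E3A and 10469 to 11328 CPM in WT/WT.

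Ratios of reads between a pair of the genes within a library do not depend on the scaling between libraries. Mdh2 had 1.34 to 2.35 reads per Cs read in the noted libraries and 0.661 to 0.737 in the other 9. By genotype the other libraries had 0.717 ± 0.022 in E3A/E3A, 0.685 ± 0.021 in WT/E3A and 0.698 ± 0.013 in WT/WT (SD, n = 3 each), and all 3 ranges overlapped. For the isocitrate dehydrogenases, Idh2 per Idh3a read was 4.79 to 8.15 in the noted and 2.76 to 3.51 in the other libraries, with 3.07 ± 0.14 in E3A/E3A, 2.96 ± 0.23 in WT/E3A and 3.402 ± 0.098 in WT/WT. Among these 9 libraries every heart of both E3A genotypes was below every WT/WT heart in that ratio, at most 3.21 against at least 3.31. The difference was not tested, and how many other gene pairs separate in this way was not counted. Of single genes, 14.2% in E3A/E3A and 12.7% in WT/E3A had ranges apart from those of WT/WT. In the Idh2 per Idh3a ratio the noted E3A/E3A and WT/E3A hearts lay above the 3 other WT/WT hearts.

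For succinyl-CoA synthetase, Suclg1 per Suclg2 read was 2.42 to 3.38 in the noted and 1.98 to 2.28 in the other libraries. Within the 2-oxoglutarate dehydrogenase complex, Dlst per Ogdh read was 0.273 to 0.337 in the noted and 0.240 to 0.260 in the other libraries. In both pairs noted and other libraries did not overlap. Among the 9 libraries Dlst per Ogdh read was 0.256 ± 0.0034 in E3A/E3A, 0.251 ± 0.0058 in WT/E3A and 0.245 ± 0.0061 in WT/WT. E3A/E3A lay above WT/WT by a narrow margin (lowest 0.2528, against a highest of 0.2516), and WT/E3A overlapped both. The noted hearts had the reverse order, with 0.296 and 0.273 in E3A/E3A and 0.337 in WT/WT. The difference among the 9 libraries was not tested either, and how many other gene pairs separate in this way was not counted.

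**Figure D4:**
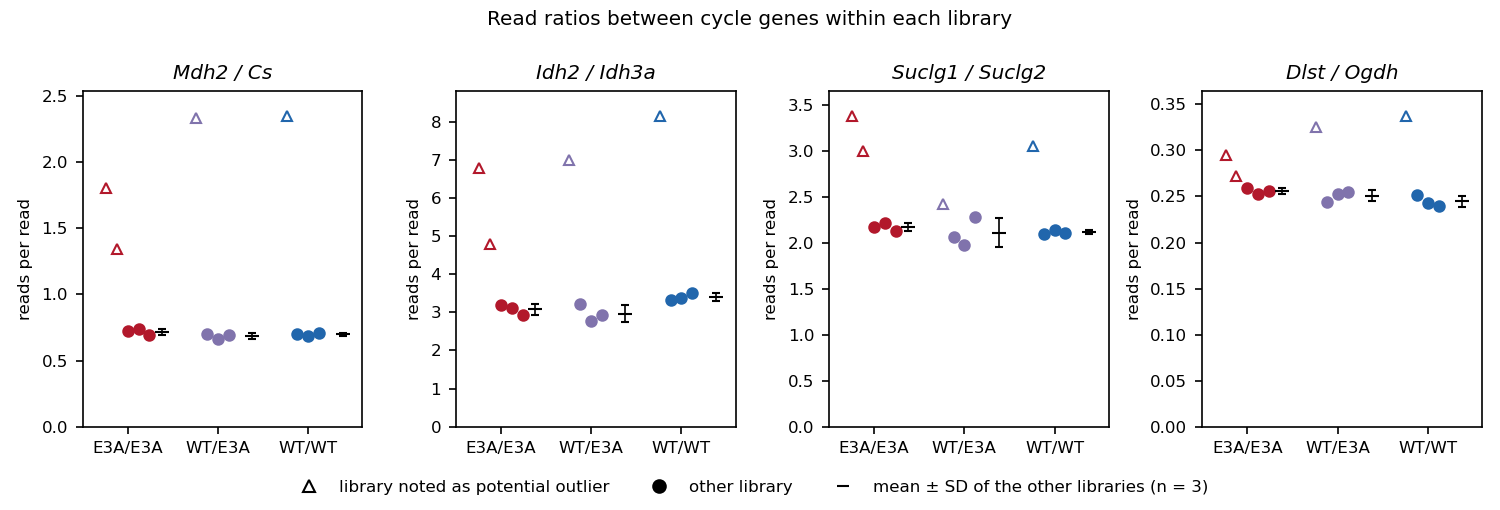
Reads of 1 gene per read of another in each heart, for 4 pairs of cycle genes, with E3A/E3A left, WT/E3A in the middle and WT/WT right; open triangles are noted libraries, filled circles the other 9, bars their mean and SD (n = 3). In all 4 pairs the triangles stand above every circle, most widely for Mdh2 per Cs read (1.34 to 2.35 against 0.661 to 0.737).

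Further genes of the cycle were read beside the 9. Idh3b, Idh3g, Dld, Sucla2, Sdha, Sdhb, Sdhc, Sdhd and Ogdhl had 0 of 9 called by edgeR in each comparison, with 13 and with 9 libraries, and 0 by DESeq2 and limma-voom with quality weights. None had an unadjusted edgeR p under 0.05 in any of the 3 comparisons, against 0.813% to 7.69% of all genes tested. With 13 libraries their median in E3A/E3A relative to WT/WT was -0.02. With 9 it was -0.06, and 8 of 9 were negative, all but Ogdhl, a paralog of Ogdh. Ogdhl had 434 and 443 CPM in the noted and 303, 309.7 and 289 CPM in the other E3A/E3A hearts, against 481 CPM in the noted and 246, 293 and 285 CPM in the other WT/WT hearts. Its log2 fold change was 0.13 (SE 0.088) in the 9 libraries and 0.12 (SE 0.24) in the 13, with overlapping ranges. In WT/E3A relative to WT/WT it was 0.17 (SE 0.089) and 0.16 (SE 0.26). In the noted libraries 3 of these 9 were higher, 5 lower and 1 overlapped, from -0.98 for Dld, the E3 component shared with pyruvate dehydrogenase, to 0.71 for Ogdhl.

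Around the cycle, pyruvate and acetyl-CoA entry (Pdha1, Pdhb, Dlat, Pdhx and Pcx) had 0 of 5 called and anaplerosis and shuttle genes 0 of 12 in each comparison by edgeR, DESeq2 and limma-voom with quality weights, with 13 and with 9 libraries. At an unadjusted edgeR p under 0.05 there were at most 1 of the 5 and 2 of the 12 in any comparison. Of all genes tested 0.813% to 7.69% had such a p, depending on the comparison and the libraries. Pdhb, a subunit of pyruvate dehydrogenase, had the highest entry value in E3A/E3A relative to WT/WT, 0.13 (SE 0.22) with 13 libraries and 0.10 (SE 0.041, edgeR adjusted p = 0.532) with 9. Slc25a1, the mitochondrial citrate carrier, was at 5.30 CPM in the noted and 6.36, 6.02 and 6.18 CPM in the other WT/E3A hearts, against 7.81 CPM in the noted and 7.61, 7.95 and 7.97 CPM in the other WT/WT hearts. All WT/E3A values lay below all WT/WT values; its log2 value relative to WT/WT was -0.39 (SE 0.11, edgeR adjusted p = 1) with 13 libraries and -0.34 (SE 0.097, adjusted p = 0.585) with 9. In E3A/E3A relative to WT/E3A, Slc25a1 had 0.28 (SE 0.10) with 13 and 0.29 (SE 0.098, edgeR adjusted p = 0.687) with 9.

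Of 7 cytosolic counterparts and malic enzymes, edgeR called 1 lower in E3A/E3A than in WT/WT with 9 libraries, against 0.271% of all genes tested. Me1, the cytosolic malic enzyme that turns malate into pyruvate and makes NADPH, had 89.8 and 98.2 CPM in the noted and 90.4, 94.9 and 91.2 CPM in the other E3A/E3A hearts. WT/WT hearts had 108 CPM in the noted and 109.6, 116 and 115 CPM in the other libraries. WT/E3A hearts had 98.8 CPM in the noted and 97.0, 109.7 and 109.0 CPM in the other libraries. In WT/E3A against WT/WT edgeR called 0 of the 7 with 13 libraries and 0 with 9. No E3A/E3A heart reached the lowest WT/WT heart, the noted ones included. Relative to WT/WT, Me1 stood at a log2 value of -0.30 (SE 0.054, edgeR adjusted p = 0.0314) with 9 libraries and -0.27 (SE 0.078, adjusted p = 1) with 13, where DESeq2 (adjusted p = 0.00173) and limma-voom with quality weights (adjusted p = 0.00854) called it. The edgeR call with 9 libraries ended with the prefix block (-0.29, adjusted p = 0.201), and in leave-one-out fits that dropped any 1 of the E3A/E3A hearts, WT/E3A replicate 4, WT/WT replicate 3 or WT/WT replicate 4. Over all 9 leave-one-out fits the edgeR adjusted p ran between 0.0156 and 0.240. Within C3 the difference was -0.27. In E3A/E3A relative to WT/E3A, Me1 had -0.19 (SE 0.055, edgeR adjusted p = 0.539) with 9 libraries and -0.16 (SE 0.078) with 13. The other 6 genes, Idh1, Mdh1, Aco1, Acly, Me2 and Me3, did not pass in any comparison.

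The 9 genes of core beta-oxidation, which feed the cycle with acetyl-CoA, are given beside them. With 9 libraries edgeR called 4 of those 9 lower in E3A/E3A than in WT/WT (Hadh, Hadha, Hadhb and Acaa2). Of all genes tested it called 0.271%. The median of the 9 core genes was -0.22, against -0.06 for the cycle enzymes, of which 0 of 9 were called. At an unadjusted edgeR p under 0.05 there were 8 of the 9 core genes, against 7.69% of all genes tested. Hadha, a subunit of the mitochondrial trifunctional protein, had 1660 CPM on average in E3A/E3A and 2047 CPM in WT/WT, a log2 fold change of -0.30 (SE 0.045, edgeR adjusted p = 0.0115), and Hadh had -0.25, Hadhb -0.31 and Acaa2 -0.38. DESeq2 and limma-voom with quality weights called 7 each, and edgeR called 0 with the prefix block, 0 without E3A/E3A replicate 5, 0 without WT/WT replicate 3, 0 without WT/WT replicate 4 and 2 without E3A/E3A replicate 4. Of all genes tested DESeq2 called 98 and limma-voom with quality weights 86. In the block fit the WT/WT side rests on replicate 2 alone, so its count cannot show whether the difference is absent within a prefix. Within C3 the differences of the 9 core genes ran from -0.33 for Hadhb to -0.04 for Echs1 (no test). Hadha stood at -0.26 there, Acaa2 at -0.30 and Hadh at -0.20. With 13 libraries edgeR called 0 of these 9, with a median of -0.22. Of the 9, 3 had an unadjusted edgeR p under 0.05, against 1.20% of all genes tested. DESeq2 called 2 and limma-voom with quality weights 3. In WT/E3A relative to WT/WT and in E3A/E3A relative to WT/E3A edgeR called 0 of these 9 genes. With 9 libraries 4 and 6 of them had an unadjusted edgeR p under 0.05, against 6.36% and 6.91% of all genes tested. DESeq2 called 1 in E3A/E3A relative to WT/E3A with 9 libraries. The difference between the lists was not tested.

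The genes whose levels ran most like the mean of the 9 over all 13 libraries were Map1lc3b (root mean square difference of centred log2 CPM 0.032), Slc25a11 (0.033), Add1 (0.034), Eps15l1 (0.035) and Vimp (0.038), among all genes tested. Slc25a11 is the mitochondrial 2-oxoglutarate carrier and Map1lc3b an autophagy protein. The mean of the 9 was itself nearly flat, from -0.06 to 0.07 log2 units about its centre. Single genes lay farther from that mean than those 5 did, from 0.066 for Ogdh to 0.43 for Mdh2.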

How the data were processed

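Poly(A) RNA of 13 hearts was sequenced as single-end reads. Each heart has a file of whole-number gene counts as deposited. STAR 2.4.0, GRCm38 (mm10) and featureCounts 1.4.4 are named in the submitters' processing notes. Whether counting used strand, or reads matching several genes, is not given in the sources used here. Groups came from the genotype labels, and 0 pairs of files were identical.

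Tests used edgeR 4.0.16 under R 4.3.3. Low counts were filtered with filterByExpr, libraries scaled by TMM, and 1 robust quasi-likelihood model fitted to the 3 genotypes, with Benjamini-Hochberg adjustment over all 14387 genes tested with 13 libraries and 14373 with 9. Standard errors and 95% intervals came from the same fit and cover spread between hearts and counting error only. The p-values set each difference against that spread. The method was tested on simulated data. Alternatives were DESeq2 1.42.0, limma 3.58.1 voom with quality weights, other scalings, no filter, only the compared groups, the title prefix as a block, and leaving out each library. Noted and other libraries were compared as log2 of CPM plus 0.1. Positions came from RefSeq (GRCm38.p6); a transcript length and GC content from GENCODE M21 was found for 98.4% of symbols. Named are all 9 genes and, of the neighbouring lists, genes called or, per comparison, with the largest rise and fall, plus the 5 most like the mean; Dld, Hadha and the genes of marker lists were added after their values were seen. One item of the neighbouring lists is not reported here. The 9 genes, lists and comparisons were chosen with earlier results of these data known.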

Additional observations from a re-analysis of the deposited data

Results flagged for a closer look

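Of 27 sets of CPM values (9 genes in 3 genotypes), 8 held a heart standing apart from the others of its genotype beyond Dixon's 95% critical value, which chance alone exceeds in a small share of such sets. Most were noted libraries. In WT/WT replicate 1, Mdh2 was highest at 2659.9 CPM (others 1151 to 1255), Idh2 at 3592 CPM (2186 to 2378) and Dlst at 1082 CPM (777 to 825), while Idh3a was lowest at 441 CPM (659.6 to 678) and Fh1 at 379.6 CPM (491 to 499). In WT/E3A replicate 1, Mdh2 was highest at 2602 CPM (1115 to 1282) and Idh3a lowest at 431 CPM (695 to 735). WT/E3A replicate 3, a library without the note, was lowest for Ogdh at 3052 CPM, against 3382 to 3407 CPM in the other 3. In E3A/E3A, where 2 of 5 libraries are noted, none of the 9 genes had a heart set apart. The rule measures the gap between an extreme value and its nearest neighbour, so 2 hearts shifted together can hide each other. For Mdh2 the noted E3A/E3A hearts had 2244 and 1896 CPM, against 1162 to 1211 CPM in the other E3A/E3A hearts.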

How the results depend on the processing

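No alternative brought any of the 9 genes past an adjusted p of 0.05: 0 were called, and the lowest adjusted p was 0.173. Of 378 log2 changes under the 7 alternatives that kept all libraries, 347 kept their sign and 31 did not, none of these 31 beyond 0.138 in size, and the cause was not tested. Total counts in place of TMM gave, for E3A/E3A against WT/WT, 0.010 for Mdh2 (13 libraries). For WT/E3A against WT/WT it gave -0.014 for Cs, -0.0067 for Ogdh and -0.017 for Suclg2 (13 libraries), and -0.0054 for Cs and -0.019 for Ogdh (9 libraries). For E3A/E3A against WT/E3A it gave 0.059 for Mdh2 (13 libraries), and 0.0040 for Idh2 (9 libraries). Limma-voom with quality weights gave, for E3A/E3A against WT/WT, -0.047 for Suclg1 and -0.057 for Fh1 (13 libraries). For WT/E3A against WT/WT it gave -0.016 for Ogdh and -0.022 for Suclg2 (13 libraries), and -0.0086 for Ogdh (9 libraries). For E3A/E3A against WT/E3A it gave -0.026 for Suclg1, -0.032 for Fh1 and 0.016 for Mdh2 (13 libraries). With the title prefix as a block the values were, for E3A/E3A against WT/WT, 0.13 for Cs and -0.0023 for Suclg1 (13 libraries), and 0.012 for Ogdh, 0.030 for Dlst and 0.033 for Mdh2 (9 libraries). For WT/E3A against WT/WT they were 0.043 for Suclg1, 0.056 for Fh1 and 0.089 for Mdh2 (13 libraries), and 0.0032 for Suclg1, 0.027 for Suclg2 and 0.049 for Mdh2 (9 libraries). For E3A/E3A against WT/E3A they were 0.030 for Cs, -0.14 for Idh2, 0.074 for Idh3a and -0.045 for Suclg1 (13 libraries).

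Counts of all genes called depended on the tool. With 13 libraries E3A/E3A against WT/WT had 1 by edgeR, 24 by DESeq2, 73 by limma-voom with quality weights, and 0 without the filter, with the prefix block or with only those groups. WT/E3A against WT/WT had 0 by edgeR, 0 by DESeq2 and 5 by limma-voom with quality weights, and E3A/E3A against WT/E3A 0 by edgeR, 4 by DESeq2 and 5 by limma-voom with quality weights; at an unadjusted p under 0.05 edgeR had 117 and 208. With 9 libraries E3A/E3A against WT/WT had 39 by edgeR, 98 by DESeq2, 86 by limma-voom with quality weights and 10 with the block. WT/E3A against WT/WT had 3, 19 and 6 by those tools, 0 with the block, 5 without the filter and 8 with only those groups. E3A/E3A against WT/E3A had 6, 38 and 1, 2 with the block and 10 without the filter.

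Leave-one-out counts ran from 0 to 1 in E3A/E3A against WT/WT with 13 libraries and from 8 (without WT/WT replicate 4) to 43 with 9, from 0 to 12 in WT/E3A against WT/WT with 9, and from 1 to 13 in E3A/E3A against WT/E3A with 9. Of 594 leave-one-out log2 changes, 59 turned sign, in 30 results. The most genes with 9 libraries were called without WT/WT replicate 2 in both comparisons with WT/WT and without E3A/E3A replicate 5 in the third. The fewest were called without WT/WT replicate 4 in all 3 comparisons, with ties without WT/WT replicate 3 in the second and without E3A/E3A replicate 4, WT/E3A replicate 3 or WT/E3A replicate 4 in the third. With 13 libraries E3A/E3A against WT/WT ran from -0.19 to 0.0075 for Cs, -0.20 to 0.13 for Idh2, -0.098 to 0.10 for Idh3a, -0.13 to 0.046 for Dlst, -0.050 to 0.11 for Suclg1, -0.063 to 0.056 for Fh1 and -0.21 to 0.35 for Mdh2. WT/E3A against WT/WT ran from -0.12 to 0.15 for Cs, -0.29 to 0.046 for Idh2, -0.047 to 0.23 for Idh3a, -0.0015 to 0.060 for Ogdh, -0.083 to 0.16 for Dlst, -0.11 to 0.0042 for Suclg1, -0.041 to 0.040 for Suclg2, -0.14 to 0.063 for Fh1 and -0.39 to 0.36 for Mdh2. E3A/E3A against WT/E3A ran from -0.20 to 0.011 for Cs, -0.055 to 0.22 for Idh2, -0.20 to 0.022 for Idh3a, -0.18 to 0.0071 for Dlst, -0.040 to 0.14 for Fh1 and -0.19 to 0.36 for Mdh2. With 9 libraries E3A/E3A against WT/WT ran from -0.030 to 0.014 for Dlst. WT/E3A against WT/WT ran from -0.020 to 0.041 for Cs, -0.036 to 0.050 for Ogdh, -0.073 to 0.017 for Suclg1 and -0.059 to 0.039 for Mdh2. E3A/E3A against WT/E3A ran from -0.049 to 0.020 for Idh2, -0.081 to 0.0088 for Suclg1 and -0.071 to 0.027 for Mdh2. Me1 and core beta-oxidation were put through these settings after the data were seen. No paired analysis was possible because the replicate numbers are names given in accession order, and no label pairs hearts across genotypes.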
